A study of Drosophila melanogaster with 2 samples.

Results

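The Drosophila melanogaster genome carries 32 genes for small nuclear RNAs (snRNAs) among the 18277 annotated genes on its chromosome arms. They were chosen by name, as every gene of the Ensembl BDGP6 annotation whose symbol begins with snRNA:, and the annotation gives all 32 the snRNA class. They fall into 12 types: 5 genes for U1, 6 for U2, 3 for U4, 7 for U5, 3 for U6, 2 for 7SK, and 1 each for U4atac, U6atac, U11, U12, U7 and LU. Of the 32 genes, 16 lie on arm 2L, 10 on 3R, 4 on 3L, 2 on X and 0 on 2R. Their lengths run from 71 to 444 bp, and each has 1 annotated transcription start site (TSS).

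The question asked of them was where the product of the gene CG8765 binds chromatin near their start sites. Chromatin immunoprecipitation with sequencing (ChIP-seq) was done with an antibody to GFP on whole embryos, 0 to 8 hours old, of a transgenic fly line that makes CG8765 fused to eGFP. Chromatin was broken by sonication to 200 to 800 bp. There is 1 group, CG8765-eGFP embryos, with 2 biological replicates of the same line, so no treatment or genotype is compared. Whether these flies also make untagged CG8765 is not stated in the labels, and the control experiment that the labels mention is not used here. Peaks in whole embryos average over all cells and over the 8 hours, so a weak peak in many cells and a strong one in few cannot be told apart. Peak lists hold no expression values, so the embryonic origin could not be checked against marker genes.

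Most snRNAs form the core of the spliceosome. U1 pairs with the donor splice site, U2 with the branch point, U4 keeps U6 inactive until the complex is assembled, U5 holds the exon ends, and U6 builds the catalytic centre. U11, U12, U4atac and U6atac do the same work in the minor spliceosome, U7 directs the trimming of histone mRNA ends, and 7SK holds the elongation kinase P-TEFb inactive. U6, U6atac and 7SK genes are read by RNA polymerase III and the other types named here by RNA polymerase II. Both kinds share an upstream promoter element, the proximal sequence element A (PSEA), bound by the complex SNAPc.

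The promoters of the 9 genes with a peak in any thresholded list are shown first, because the distance between this element and the peaks is a result described further on. Each stretch runs from 75 bases before the TSS to 5 bases from it on the gene's strand (RefSeq genome, build dm6), and the capitals mark the 7-letter core TTCNCAA of the element. U1:95Cc, U4:38AB, LU and 7SKb, which had no thresholded peak, follow for comparison.
U1:95Ca (chr3R:23859626-23859705, minus strand): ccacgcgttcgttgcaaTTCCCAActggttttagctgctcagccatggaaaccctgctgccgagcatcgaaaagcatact
U1:95Cb (chr3R:23827795-23827874, plus strand): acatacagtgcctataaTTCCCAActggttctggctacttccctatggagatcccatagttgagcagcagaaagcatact
U2:34ABb (chr2L:13215764-13215843, plus strand): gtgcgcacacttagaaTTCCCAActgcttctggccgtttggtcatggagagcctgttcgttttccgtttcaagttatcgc
U4:39B (chr2L:21215174-21215253, minus strand): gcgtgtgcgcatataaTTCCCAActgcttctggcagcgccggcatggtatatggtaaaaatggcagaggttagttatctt
U5:35D (chr2L:15751678-15751757, minus strand): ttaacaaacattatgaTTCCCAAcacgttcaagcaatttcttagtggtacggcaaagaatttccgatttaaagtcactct
U5:63BC (chr3L:3090726-3090805, plus strand): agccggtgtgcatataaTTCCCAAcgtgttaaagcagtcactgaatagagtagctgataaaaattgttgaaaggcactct
U6:96Ab (chr3R:24556617-24556696, plus strand): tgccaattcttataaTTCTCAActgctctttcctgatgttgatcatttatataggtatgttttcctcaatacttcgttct
U6:96Ac (chr3R:24557140-24557219, plus strand): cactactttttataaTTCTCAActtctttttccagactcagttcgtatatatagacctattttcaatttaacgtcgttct
7SKa (chr3R:7474992-7475071, minus strand): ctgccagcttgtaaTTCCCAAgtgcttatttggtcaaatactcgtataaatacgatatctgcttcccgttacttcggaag
U1:95Cc (chr3R:23826259-23826338, plus strand): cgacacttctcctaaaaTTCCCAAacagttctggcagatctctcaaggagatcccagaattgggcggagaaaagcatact
U4:38AB (chr2L:19810659-19810738, plus strand): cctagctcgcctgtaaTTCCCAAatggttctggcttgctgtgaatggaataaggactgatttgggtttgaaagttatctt
LU (chr2L:3046690-3046769, plus strand): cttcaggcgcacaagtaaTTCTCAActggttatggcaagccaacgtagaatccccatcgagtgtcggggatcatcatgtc
7SKb (chr3R:23432794-23432873, plus strand): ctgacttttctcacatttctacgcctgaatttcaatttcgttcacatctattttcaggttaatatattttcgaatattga

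A stretch of 61 bases centred on the summit shows what lies under each peak of the conservative list. It is printed on the gene's strand, and capitals mark bases inside the snRNA gene.
U1:95Ca (chr3R:23859441-23859501, minus strand): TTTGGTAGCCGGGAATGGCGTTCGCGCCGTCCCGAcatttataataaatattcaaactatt
U1:95Cb (chr3R:23827891-23827951, plus strand): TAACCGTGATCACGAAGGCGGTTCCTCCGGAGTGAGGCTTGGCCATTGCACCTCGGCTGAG
U1:95Cb (chr3R:23828090-23828150, plus strand): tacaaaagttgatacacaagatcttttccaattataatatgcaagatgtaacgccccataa
U6:96Ab and U6:96Ac, shared (chr3R:24557049-24557109, plus strand): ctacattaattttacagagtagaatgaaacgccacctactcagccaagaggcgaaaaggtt
7SKa (chr3R:7474727-7474787, minus strand): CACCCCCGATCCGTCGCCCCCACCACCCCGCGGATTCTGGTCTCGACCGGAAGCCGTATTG

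Each deposited list gives a peak's interval, its summit, a signal and a score. The signal is the authors' own value per peak. The score, an integer of at most 1000, comes from the irreproducible discovery rate (IDR). It is higher for peaks that rank both high and alike in the sets of peaks compared, and the thresholded lists hold scores of 830 and above. The 4 thresholded lists were read on the arms, with 2132 peaks in the conservative list, 2825 in the less strict list of the series, 1875 in replicate 1's own list and 1671 in replicate 2's own list. The ranked lists behind them hold 106449 to 142719 peaks each, before the threshold. Signals are scaled differently between lists, so ranks within a list are given beside them, and a rank percentile of 100 is the highest signal. Positions count from 0 at the TSS along the gene's strand, negative upstream, and a gene was counted where a summit lay within 500 bp of its TSS. Sequencing depth is unknown, so no interval on a signal can be given.

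A conservative peak lay near 5 of the 32 snRNA genes (15.6%), against 8.66% of all annotated genes and 10.5% of protein-coding genes. The 5 genes were U1:95Ca, U1:95Cb, U6:96Ab, U6:96Ac and 7SKa. In the less strict list 8 snRNA genes had a summit (25%), against 10.3% of all genes. In replicate 1's own thresholded list 6 had one (18.8%), against 7.03% of all genes, whereas in replicate 2's own list 1 had one (3.12%), against 7.27%. The snRNA share was thus above the share of all genes in every list but replicate 2's, where it was below it. It was also below for conservative peaks that overlap thresholded peaks of both replicates, with 1 snRNA gene (3.12%) against 4.62% of all genes, and for those above the median signal, with 0 against 4.87%. With genes so few, 1 peak moves these shares by several percentage points, and no test was made on the list. Of the other short noncoding genes, 7 of 269 snoRNA genes (2.6%) and 6 of 290 tRNA genes (2.07%) had a conservative summit.

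**Figure D1:**
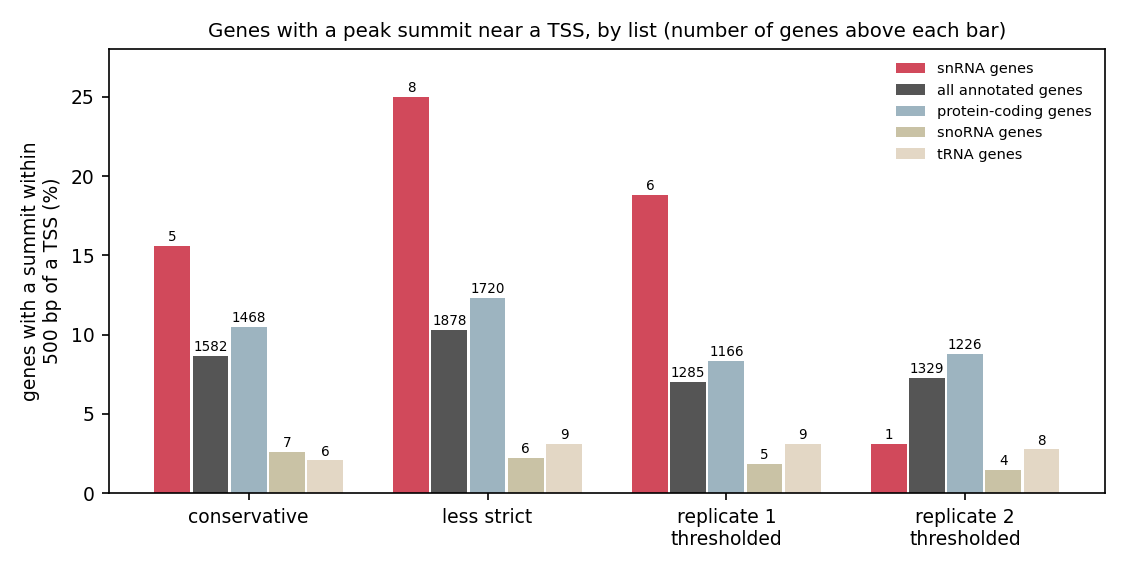
Percentage of genes with a peak summit within 500 bp of a TSS (y axis) in the 4 thresholded lists (x axis), for snRNA genes, all annotated genes, protein-coding genes, snoRNA genes and tRNA genes, with the number of genes printed over each bar. The snRNA bar is the highest of its group in 3 lists, at 15.6%, 25% and 18.8%, and stands at 3.12%, from 1 gene, in replicate 2.

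The peaks came from U1, U2, U4, U5, U6 and 7SK genes. Across the 4 thresholded lists 9 of the 32 genes had a summit in at least 1 list (28.1%, against 11.6% of all annotated genes): 2 of 5 U1 genes, 1 of 6 U2 genes, 1 of 3 U4 genes, 2 of 7 U5 genes, 2 of 3 U6 genes and 1 of 2 7SK genes. The other 23 genes had none, among them the single genes for U4atac, U6atac, U11, U12, U7 and LU. In every type with a peak at least 1 copy had none. The conservative list held U1, U6 and 7SK genes, and the U2, U4 and U5 genes entered only through the less strict list or replicate 1's own.

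7SKa was the one snRNA gene called in all 4 thresholded lists. Its conservative peak (chr3R:7474595-7474918) had a signal of 89.1, a score of 1000 and rank 1343 of 2132, with the summit at position 239 bp, inside the 444-bp gene. In replicate 1 the signal was 45.3 (score 987, rank 1341 of 1875) with the summit at 237 bp. In replicate 2 it was 42.0 (score 884, rank 1567 of 1671) with the summit at 229 bp, 8 bp from that of replicate 1. The summit sequence, with 68.9% G and C, lies wholly inside the gene. The second 7SK gene, 7SKb, is 48.9% identical to 7SKa over the gene. Over the 250 bp before the TSS the pair was 48.8% identical, where pairs of genes of different types gave 45.2 to 59.8%. No range for different types was computed over the gene. The strongest ranked peak of 7SKb, at −364 bp, had a signal of 9.6. Its rank percentile in the ranked list behind the conservative one was 17.8, far below the 98.9 of 7SKa.

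U1 genes held the strongest snRNA peak of the conservative list and its weakest. The peak at U1:95Ca (chr3R:23859309-23859632) had a signal of 93.5, a score of 1000 and rank 1246 of 2132, with its summit at 159 bp, near the end of the 164-bp gene. Replicate 1's thresholded list had it at 128 bp with a signal of 54.9, a score of 1000 and rank 1026 of 1875. Replicate 2's own ranked list held no summit within 500 bp of this TSS, although the conservative list, made from both replicates, gave the peak the highest score. Reads were not examined, so a summit missing from a replicate's list says only that the list holds none there.

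U1:95Cb had a pair of overlapping conservative peaks. The first (chr3R:23827759-23828082), with its summit at 51 bp, had a signal of 48.9, a score of 864 and rank 2046 of 2132. The second (chr3R:23827958-23828281), at 250 bp, had a signal of 18.7, a score of 863 and rank 2071. Both scores lay just over the threshold, and in the ranked list behind the less strict list the same intervals had scores of 490 and 489 and were not called. In replicate 1's ranked list the strongest summit lay at 134 bp (signal 29.8, rank percentile 97, score 29). In replicate 2's it lay at 36 bp (signal 35.5, rank percentile 97.5, score 72). Both of these scores were far below the threshold. The other 3 U1 genes were not called. U1:21D had a ranked peak at 156 bp with a signal of 46.2 and a score of 96, and U1:95Cc had one at −41 bp with a signal of 30.2 and a score of 70. U1:82Eb had no ranked peak in any list.

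The U6 genes lie in a row on 3R, all on the plus strand, with 604 bp between the start sites of U6:96Aa and U6:96Ab and 523 bp between those of U6:96Ab and U6:96Ac. U6:96Ab and U6:96Ac share 1 peak (chr3R:24556917-24557240) with a signal of 73.5, a score of 1000 and rank 1712 of 2132. Its summit lies between the genes, at 387 bp from the TSS of U6:96Ab, 281 bp past that gene's end, and at −136 bp from the TSS of U6:96Ac. Replicate 1's thresholded list placed it at −108 bp of U6:96Ac with a signal of 40.1 and a score of 1000. Replicate 2's ranked list placed it at −110 bp with a signal of 42.3 and a score of 595, below the threshold, although the rank percentiles were 98.3 and 98.4. Assigned to its nearest TSS alone, this peak counts for U6:96Ac only. U6:96Aa had a signal of 23.2 at −469 bp, at a rank percentile of 59.9, in the ranked list behind the conservative one.

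The U2 and U4 genes with a peak had it in the less strict list and in replicate 1's own. U2:34ABb had a peak in the less strict list (chr2L:13215892-13216215) at 215 bp, 24 bp past the gene's end, with a signal of 85.9 and a score of 995. The ranked list behind the conservative list held the same peak at a score of 614. Replicate 1's thresholded list had it at 181 bp with a signal of 44.3 and a score of 937, and replicate 2's ranked list at 177 bp with a signal of 24.2 and a score of 381. The summits of the replicates were 4 bp apart, and the score passed the threshold in replicate 1 only.

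U4:39B had its less strict peak (chr2L:21214900-21215223) at 116 bp, inside the gene, with a signal of 81.2 and a score of 994, against 526 in the list behind the conservative one. Replicate 1's thresholded summit was also at 116 bp, with a signal of 49.7 and a score of 1000. Replicate 2's ranked summit, at 97 bp, had a signal of 22.7 and a score of 40. U4:38AB, 94.4% identical to U4:39B over the gene, had its ranked peak at a like place, 111 bp, with a signal of 62.1 and scores of 667 and 356 in the ranked lists behind the conservative and the less strict list. It was called in no list. U4:25F, 73.8% identical to both, had a signal of 6.7 at 116 bp.

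Among 7 U5 genes, U5:35D and U5:63BC were called, in the less strict list alone. The peak at U5:35D (chr2L:15751052-15751375) had a signal of 72.3 and a score of 938, with its summit at 468 bp, which is 343 bp past the gene's end and at −136 bp from the TSS of ND-B17, a protein-coding gene for a subunit of mitochondrial complex I. Replicate 1's ranked list placed it at 466 bp with a signal of 28.3 and a score of 442, below the threshold. Replicate 2's ranked list and the ranked list behind the conservative one held no summit within 500 bp of the TSS of U5:35D. U5:63BC had its summit at 31 bp (chr3L:3090670-3090993), inside the gene, with a signal of 49.4, a score of 948 and rank 2681 of 2825. In the ranked lists the U5:63BC summits lay at −41 bp in replicate 1 (score 643) and at 121 bp in replicate 2 (score 508), 162 bp apart. ND-B17 and the U6 pair were the only genes whose TSS also lay within 500 bp of a thresholded summit counted for an snRNA gene. Summits found only in the ranked lists were not searched in this way.

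Several genes without a called peak had a strong ranked one. In the ranked list behind the conservative list, U11 had a signal of 46.1 at −438 bp (score 435), U5:23D 45.3 at 105 bp (score 430), U2:34ABc 44.9 at 196 bp (score 455), U5:38ABb 43.3 at 215 bp (score 241) and LU 40.3 at −2 bp (score 427). The peak of U2:34ABc is also within reach of U5:34A, whose TSS is 287 bp away on the other strand. The strongest ranked signals in that list were 12.7 at U2:14B, 24.5 at U2:34ABa and 27.4 at U2:38ABa, 14.1 at U5:14B and 19.2 at U5:38ABa, and 8.9 at U12, and U7 had no summit there. The minor-spliceosome genes U4atac and U6atac stood at 12.4 and 17.4, rank percentiles of 26 and 41.8. U1:82Eb and U2:38ABb were the 2 genes without a ranked peak in any list.

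**Figure D2:**
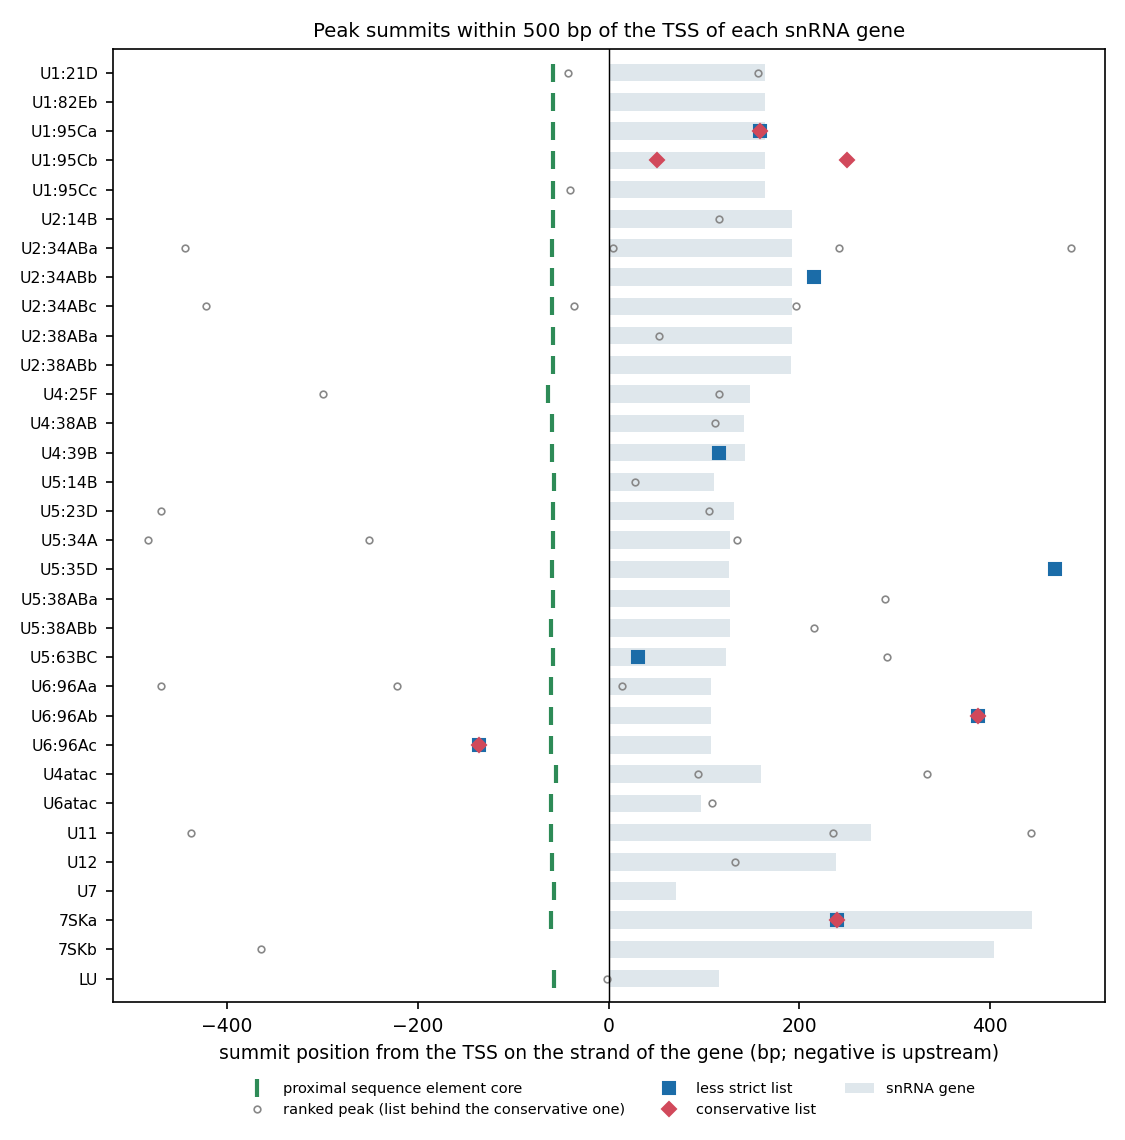
Position of peak summits from the TSS of each snRNA gene in bp (x axis, negative upstream), with 1 row for each of the 32 genes (y axis). Shaded bars are the genes, green ticks the start of the PSEA core, open circles peaks of the ranked list behind the conservative one, blue squares less strict and red diamonds conservative peaks. Of the conservative and less strict summits, the one at −136 bp of U6:96Ac is alone in lying upstream. The same peak is drawn again at 387 bp of U6:96Ab. The element stands at −64 to −55 bp in 31 genes.

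Most called summits lay downstream of the snRNA start site they were counted for, where most peaks of other genes lay upstream. With the strongest conservative summit of each gene, the median position was 159 bp over the 5 snRNA genes (−136 to 387 bp), and 4 of 5 lay downstream (80%). Over all 1582 genes with a conservative summit the median was −122 bp and 14% lay downstream, with 11.6% for protein-coding genes. The less strict list gave 7 of 8 downstream (87.5%, against 16% of all genes) and replicate 1's list 5 of 6 (83.3%, against 14.5%). Replicate 2's 1 gene was downstream, against 14.3% of all genes. The shared U6 peak counts here on both sides, at 387 bp of U6:96Ab and at −136 bp of U6:96Ac. In the less strict list the summit at 468 bp of U5:35D also lies at −136 bp of ND-B17. With the nearest TSS alone, 4 snRNA genes kept a conservative summit, with a median of 105 bp, and U6:96Ac was the only one with its summit upstream. snRNA genes are short, so of the 5 conservative summits 3 lay inside the gene, 1 past its end and 1 upstream. Among tRNA genes, which are short as well, 2 of 6 conservative summits were downstream (33.3%), and among snoRNA genes 0 of 7.

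In the ranked lists the difference was smaller. In the list behind the conservative one, the strongest summit was downstream at 21 of 28 snRNA genes (75%, median 114 bp), against 49.8% of all genes (median −2 bp). The shares were 65.5% in replicate 1 and 58.3% in replicate 2, against 48.7% and 48%. These peaks count most genes of any kind: 28 of 32 snRNA genes had a ranked summit (87.5%, against 76.7% of all genes), 27 in the other ranked list of the series (84.4%, against 77.9%), 29 in replicate 1 (90.6%, against 68.8%) and 24 in replicate 2 (75%, against 76.2%). The snRNA peaks were high among the ranked ones and low among the called ones. The median rank percentile was 93.9 over the snRNA genes and 78 over all genes in the list behind the conservative one. Within the conservative list it was 19.7 over the snRNA genes and 55.8 over all genes, with a median signal of 73.5 against 113. Both snRNA medians are the values of the shared U6 peak, which was counted once for each of its genes. The strongest peaks of the other snRNA genes in that list had percentiles of 4.08 to 41.6 and signals of 48.9 to 93.5. No snRNA gene had a peak above the list's median signal of 105.

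Replicate 1 held high-ranking peaks at more snRNA genes than replicate 2. Both ranked lists held a summit near 23 of the 32 genes, replicate 1 alone near 6, replicate 2 alone near 1 (U12), and neither near 2. A summit among the highest 5% of ranked peaks by signal lay near 14 snRNA genes in replicate 1, where 14.3% of all genes had one, and near 4 in replicate 2, where 16.7% had one. The 4 were U1:95Cb, U6:96Ab, U6:96Ac and 7SKa, and they were among the 14. The rank percentile was higher in replicate 1 at 13 of the 23 genes with a summit in both, against 43% of 11058 such genes overall. The strongest summits of the replicates lay within 100 bp of each other at 13 of the 23 genes, with a median distance of 67 bp.

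The gap between the replicates was wide at a few genes. U1:21D stood at a percentile of 97.2 in replicate 1 and 53.2 in replicate 2, U2:38ABa at 97 and 25.1, and U1:95Cc at 89.6 and 9.76. U7 stood the other way, at 27.1 and 85.4, and LU stood at 83.5 and 94.3. The 10 genes that reached the highest 5% in replicate 1 and not in replicate 2 were U1, U2, U4 and U5 genes, of which U2:34ABc and U5:34A share their peak. Depth and antibody yield of each replicate are unknown, and their part in these gaps was not tested.

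**Figure D3:**
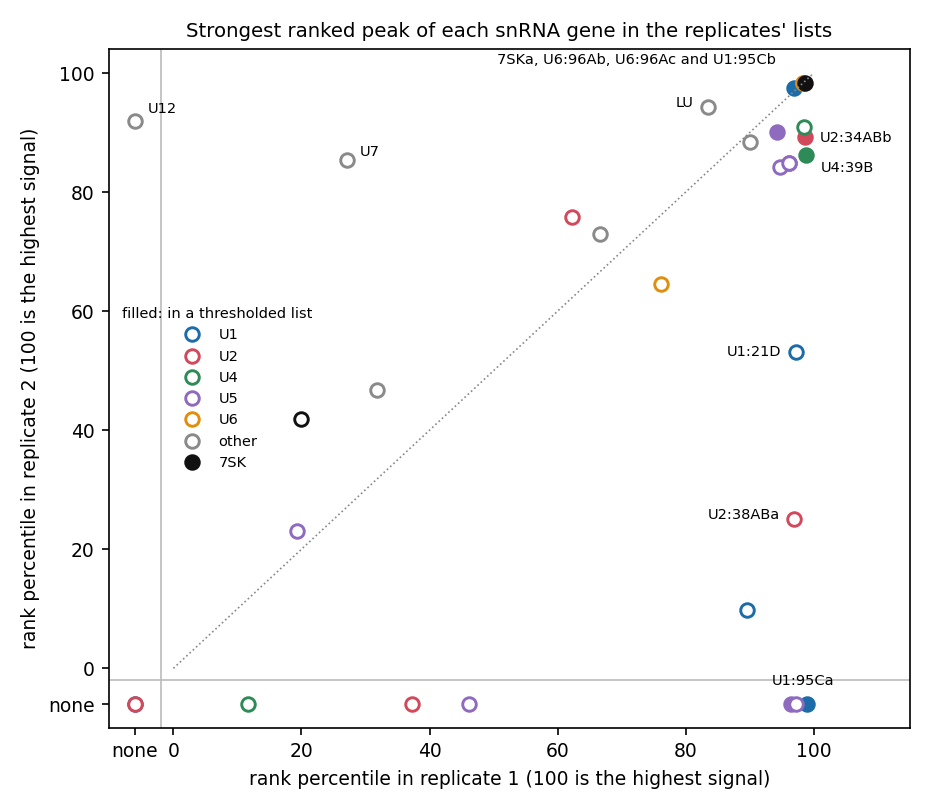
Rank percentile by signal of the strongest ranked peak within 500 bp of the TSS of each snRNA gene in replicate 1 (x axis) and replicate 2 (y axis), where 100 is the highest signal and none marks genes without a peak. Colours give the snRNA type, filled points are the 9 genes with a thresholded peak, and the dotted line marks equal percentiles. The genes named at the top right stand at 97 or above in both replicates, and U1:95Ca at 99 in replicate 1 without a peak in replicate 2.

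Copies of U1, U2 and U6 are near-identical in the gene, and those of the other types less so. Over the gene, U1 copies were 98.2 to 100% identical, U2 copies 98.4 to 100% and U6 copies 100%, while U5 copies ranged from 78.5 to 96.1% and U4 copies from 73.8 to 94.4%, and the 7SK pair was 48.9% identical. Over the 250 bp before the TSS the ranges were 51.8 to 59.6% for U1, 51.3 to 81.7% for U2, 50.9 to 53.8% for U4, 48.3 to 60.1% for U5 and 50.2 to 55.7% for U6. Pairs of different types gave 45.2 to 59.8% there. The highest value was that of U2:14B and U2:38ABa, 81.7%, neither of which was called. U1:95Ca, U1:95Cb and U1:21D are 100% identical over the gene, yet the first had a signal of 93.5, the second 48.9, and the third an uncalled 46.2.

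Such copies bear on how reads can be placed. A read that fits several copies equally cannot be assigned to 1 of them, and the placing of such reads by the authors is not stated in the sources used. Within 250 bp of the TSS, a median of 14.4% of the 30-base stretches of an snRNA gene occur again in the genome (0 to 59.7%), against a median of 0 over all genes and 10.7% over tRNA genes. U1:21D, U1:95Ca, U1:95Cb, U2:34ABb, U2:34ABc, U2:38ABa and the 3 U6 genes have 100% of the stretches inside the gene repeated. 9 genes have no repeated stretch, and 1 of these 9, 7SKa, was called. Of the 23 genes with some, 8 were called: 4 in the conservative list, 7 in the less strict, 5 in replicate 1 and 0 in replicate 2. The share was 0 to 39% (median 17.8%) in the 9 called genes and 0 to 59.7% (median 14.4%) in the other 23. The ranges overlapped up to 39%, and the 4 genes above it, U2:34ABa, U2:34ABc, U2:38ABb and U2:38ABa at 42.2, 43.6, 52.5 and 59.7%, were not called. The part of read placement in the calls was not tested.

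**Figure D4:**
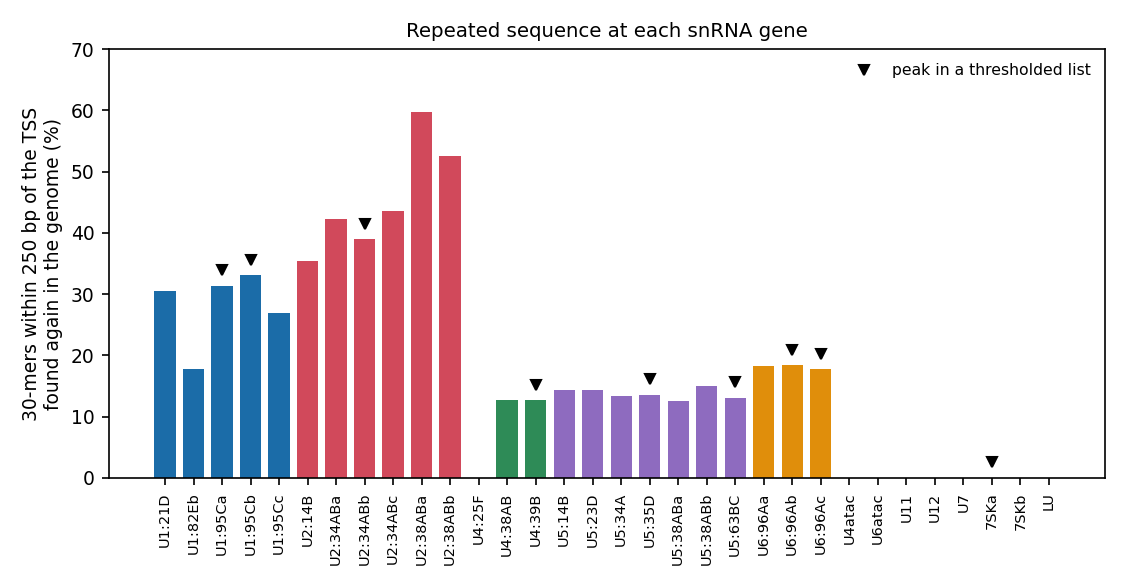
Share of the 30-base stretches within 250 bp of the TSS that occur again in the genome, in percent (y axis), for each of the 32 snRNA genes (x axis), coloured by type, with triangles over the 9 genes with a thresholded peak. The U2 genes reach 59.7%, the minor-spliceosome genes, U7, LU, U4:25F and both 7SK genes are at 0. The 4 highest bars, from 42.2%, carry no triangle, and 7SKa is the 1 gene at 0 that does.

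The PSEA core was common to genes with and without a peak. TTCNCAA, on either strand between 250 bp before and 50 bp after the TSS, was present in 31 of 32 snRNA promoters, against 19.4% of all 18277 promoters of that length, in all 9 called genes and in 22 of the other 23. 7SKb was the exception. Each of the 31 had a copy on the gene's strand that began between −64 and −55 bp (median −58), and U4atac and U11 had a further one at −247 and −39 bp. Of all promoters, 403 (2.2%) had a copy on the gene's strand starting between −100 and −46 bp. The variable base was C in 26 genes and T in 5, among them U6:96Ab and U6:96Ac. The longer form AATTCNCAA, which contains the first, was present in 28 snRNA promoters (87.5%, against 2.37%), 8 of them called. No called summit fell on the element itself. The closest summit on its upstream side was at −108 bp of U6:96Ac in replicate 1, and the closest on its downstream side at 31 bp of U5:63BC in the less strict list. Peak intervals are wider than summits. Called intervals at U1:95Cb, U6:96Ac and U5:63BC covered the gene's element, and those at the other called genes did not.

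Of the other strings searched on both strands in the same window, the TATA box string TATAAA was present in 15 snRNA promoters (46.9%, against 43.9% of all). TATCGATA, the DNA replication-related element, and GGTCACAC, core promoter motif 1, were in 0 of 32, against 7.48% and 6.08% of all promoters. Within the 100 bp before the TSS, TATAAA was present in 5 snRNA promoters (15.6%, against 18.9% of all). On the gene's strand it was there only at U6atac, at −30 bp, and at 7SKa, at −31 bp. A match or its lack describes these letters in these windows only.

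Genes for the proteins that make, modify or work with snRNAs were read in the same way. Of 65 such protein-coding genes in 6 lists, 13 had a conservative summit near a TSS (20%, against 10.5% of protein-coding genes), 9 in replicate 1's thresholded list (13.8%, against 8.35%) and 9 in replicate 2's (13.8%, against 8.78%). Integrator, which cuts the ends of snRNAs made by RNA polymerase II, had 4 of 14 subunit genes: IntS11 (signal 188), IntS6 (177), IntS9 (138) and defl (112). The list for transcription of snRNA genes had 3 of 13, with Bdp1 (324) and Brf (249), subunits of the polymerase III initiation factor TFIIIB, and ear (61.3), a member of elongation complexes.

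The proteins of the particles themselves, with others that work with them, were read as 4 lists. In the list named for snRNP-specific proteins, 3 of 12 had a summit. They were U2af50 (signal 163), which binds the polypyrimidine tract and is a splicing factor outside the particles, U4-U6-60K (88.9), a protein of the U4/U6 particle, and snRNP-U1-C (79.3), which stabilises U1 at the donor site. Sm and LSm ring proteins had 2 of 13, with SNRPG (230) and SmD3 (87.2). The 7SK particle and P-TEFb had 1 of 5, bin3 (119 at −169 bp), the capping methylase of 7SK, and the SMN complex with Cajal body genes had 0 of 8. Of the 13 genes, bin3 alone had no TSS of another gene within 500 bp of its strongest summit. Neither replicate's own thresholded list held a summit at bin3 or at ear. SmD3 and U4-U6-60K had one in replicate 1's list alone, and Bdp1 and IntS11 in replicate 2's alone. With each peak given to its nearest TSS alone, 6 of the 65 genes remained (9.23%, against 6.09% of all annotated genes). The share of protein-coding genes alone was not counted in this setting. In the conservative list it was higher than that of all genes (10.5% against 8.66%). Unlike most of the snRNA summits, the strongest summit of each of the 13 genes lay upstream. The positions ran from −394 bp at IntS6 to −61 bp at Bdp1.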

How the data were processed

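ChIP-seq peak lists of 2 biological replicates of CG8765-eGFP embryos were analysed on build dm6, per the labels. The signal and the score of each peak are the authors' values in the deposited lists, and the summit is the deposited offset in the interval. Each replicate's lists derive from its own alignments and those of the series from both, with a control, per the file headers. No source used here names the aligner or the peak caller. Each of the 4 ranked lists holds 10 columns beyond the first 10, all left unused. For the series, with 2 such lists, that comes to 20 columns, and no label ties them to a sample.

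TSSs came from Ensembl release 115 of BDGP 6.54 without 5896 entries for transposable elements, and sequences from the RefSeq genome of build dm6. Intervals were matched between each thresholded list and the ranked lists: all 2132 conservative peaks had the same interval and score in 1 ranked list of the series, and all 2825 less strict peaks in the other. Identity is matches over columns of a global alignment. Repeated stretches were counted on both strands of the genome, and this search and the string search were tested on simulated data. No test was made, as there is 1 group, and depth is unknown. The members, gene lists and strings were chosen with earlier results of these data known. Values are given in full for genes with a summit in a thresholded list and for those whose ranked peak just missed it, by a written rule. The alternatives were the other lists, each replicate left out, windows of 200 and 1000 bp, intervals in place of summits, merged peaks, peaks above the median signal, peaks found in both replicates, the nearest TSS alone and stretches of 50 and 100 bases. Python 3.11.15, NumPy 2.4.6, pandas 2.3.3, Biopython 1.88 and matplotlib 3.10.9 were used.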

Additional observations from a re-analysis of the deposited data

How the results depend on the processing

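Of 53 alternatives to the counts, median position, repeated share and string count, 34 changed little and 19 moved. The share of snRNA genes, 15.6% against 8.66% of all genes in the conservative list, fell below that of all genes in 3 of them: 3.12% against 7.27% without replicate 1, 3.12% against 4.62% in both replicates, and 0 against 4.87% above the median signal. The 5 snRNA genes of the conservative list became 8 in the less strict list, 3 within 200 bp, 1 where both replicates' thresholded lists overlap the peak (7SKa), and 0 above the median signal. Leaving out 1 replicate gave 1 to 6 genes: 6 without replicate 2 and 1, 7SKa, without replicate 1. The 5 separate peaks became 3 within 200 bp, 1 in both replicates and 0 above the median signal, with 1 to 5 when a replicate was left out. The median position of 159 bp became 51 bp within 200 bp, 105 bp with the nearest TSS alone and 239 bp in both replicates, with 154 to 229 bp when a replicate was left out; above the median signal no gene was left to give one. All annotated genes fell from 1582 to 890 above the median signal and to 845 in both replicates. The 13 protein genes became 7 in both replicates (10.8%, against 4.62% of all genes). With the nearest TSS alone they became 6 (9.23%, against 6.09%). For both settings the share of protein-coding genes alone, the like comparison, was not counted. The median repeated share of 14.4% became 10.2% with 50-base stretches and 0 with 100-base stretches. The cause of these shifts was not tested beyond the smaller windows and lists themselves. No paired analysis was possible because there is 1 group and no comparison between groups.

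Read depth, read placement at identical copies and the control were not available to these counts, so a call that is absent from a list shows only that the list holds no summit there. With 32 genes, 1 gene is 3.12% of the list.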
